A study of Mus musculus with 2 samples.

Results

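The 3p arms of mouse microRNAs miR-6896 to miR-7094 were chosen by name alone, as every experimental probe called mmu-miR-N-3p with a number N in that run and, where present, a letter after the number. This gave 201 of the 1892 microRNAs on the array, with at least 1 member for each of the 199 numbers, and 3 members carried a letter. Most names in this run were given to predicted mouse mirtrons. A mirtron is a short intron that is cut out of a pre-mRNA by the spliceosome, debranched and folded into a hairpin that Dicer can cut, so that it bypasses cleavage by Drosha. In such a hairpin the 5p arm lies toward the 5′ splice site and the 3p arm at the 3′ splice site, where introns carry a pyrimidine tract followed by AG. Many annotated mirtrons yield few molecules, and the function of most is not known, so none is stated here for any member.

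Mouse skin and mouse oral mucosa, both unwounded, were profiled on 1 single-colour Cy5 microRNA array per tissue, hybridised with 2 µg of total RNA. The methods describe female Balb/c mice aged 8 to 10 weeks, name no altered allele or agent for unwounded animals, and state that RNA of 3 animals was pooled. They call the samples of the tissues matched. In the same study skin wounds were made on the back and mucosal wounds on the hard palate, but the site of the unwounded samples and the share of tissue below the epithelium are not given. Elsewhere the paper calls the profiled material epithelium. With 1 array of pooled RNA per tissue there is no replicate, so no test between tissues was possible. An SD beside a value comes from the 2 repeat spots of a probe and covers technical error within an array only, so precision is limited by the number of arrays.

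The labelled tissues were checked against microRNA markers. All 7 epithelial markers, among them miR-203-3p, miR-205-5p and the miR-200 family, were detected on both arrays. After normalization miR-429-3p was past 2-fold toward oral mucosa (1.12) and miR-200c-3p toward skin (-1.22). Of the 4 Hox-cluster markers, microRNAs of trunk skin, skin had 3 detected and oral mucosa 0. Markers of other cell types gave more signal in oral mucosa. For 5 mesenchymal markers the summed scanner signal, not normalized, was 516 (skin, 4 detected) and 1871 (oral mucosa, 5 detected), with all 5 past 2-fold after normalization. The red cell sum, over the 2 of 3 listed markers on the array, was 105 for skin and 3106 for oral mucosa, carried by miR-451a, while miR-144-3p was detected on neither. Sums for endothelium (81.6 and 200.2) and immune cells (99.7 and 304) had the same direction, with 1 marker each past 2-fold, and miR-126a-5p and miR-223-3p were detected on neither. The skeletal muscle sums were 297 and 428 with 0 markers past 2-fold, miR-1a-3p was detected on neither array, and miR-206-3p, detected on both, differed by -0.19 after normalization. Fewer cells of a type and less RNA per cell cannot be told apart in such samples.

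The mature sequences below belong to the members that carry the results, namely the 12 that differed by 2-fold or more between the arrays and the brightest members of each array. Sequences were those of RefSeq for GRCm38.p6, which held 176 of the 201 members, in each case with the sequence printed in the array file. They run 5′ to 3′, and capitals mark the seed, bases 2 to 8 counted from the 5′ end. MiR-6970-3p is the member of the 12 for which no sequence is shown. The first 11 differed past 2-fold, and the last 4 were among the brightest.
miR-7022-3p: aCAAGCCUgaccucugccccca
miR-6934-3p: aCCUCUGCuccugccccaccag
miR-7082-3p: gCCCCCCUugcugucugucucc
miR-7049-3p: uGCAGCCCcugucugccucag
miR-6958-3p: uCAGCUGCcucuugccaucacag
miR-7031-3p: aACCCUCUugcccucuccuag
miR-7066-3p: uCUACCCAuugccugccucccag
miR-6929-3p: cAGGUGCUgucuucuucuuccag
miR-7017-3p: aCCCUGCUccucucccuccag
miR-7008-3p: uGUGCUUCuugccucuucucag
miR-7072-3p: cUAGCUUCucuucuuccccag
miR-7058-3p: cUCGUUCCuuccuuucuuccag
miR-6896-3p: uUUCUCUCucucaccuacaaac
miR-7027-3p: uCGGGUUUcucuccucuuccag
miR-6975-3p: uCUCUCCUuucuccuccuag
No seed in this set occurs more than once, and most of the sequences are mainly C and U downstream of the seed and end in CAG or UAG.

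Each of these lies within the span of a protein-coding gene in GRCm38.p6. MiR-7022-3p lies at chr4:148146937-148146958 on the minus strand, within Fbxo6, an F-box gene. MiR-6934-3p lies at chr11:119154076-119154097 on the minus strand, within Tbc1d16, of a family of Rab GTPase-activating proteins. MiR-7082-3p lies at chr9:21075499-21075520 on the minus strand, within Raver1, an RNA-binding protein gene. The host of miR-7049-3p, at chr7:28560925-28560945 on the minus strand, is Pak4, a kinase gene. Among the others are Dst, the dystonin gene that links keratins to hemidesmosomes (miR-6896-3p, chr1:34117408-34117429, plus strand), and Lat, an adaptor of T cell receptor signalling (miR-7058-3p, chr7:126367971-126367992, minus strand). On the minus strand also lie miR-6958-3p at chr15:89185465-89185487 within Dennd6b, miR-7031-3p at chr5:121819209-121819229 within Sh2b3, an adaptor of cytokine receptor signalling, miR-7066-3p at chr8:70102524-70102546 within Ncan, which encodes the proteoglycan neurocan, and miR-6929-3p at chr11:101419187-101419209 within Ptges3l. On the plus strand lie miR-7017-3p at chr4:133195696-133195716 within Wasf2, a gene of actin branching, miR-7008-3p at chr3:31039007-31039028 within Prkci, an atypical protein kinase C, and miR-7072-3p at chr8:94505085-94505105 within Nlrc5, a regulator of MHC class I genes. The last plus-strand members are miR-7027-3p at chr5:114404518-114404539 within Ube3b, a ubiquitin ligase gene, and miR-6975-3p at chr17:35244116-35244135 within Ddx39b, an RNA helicase of splicing and mRNA export. Of the 176 matched members 175 (99.4%) lay in the span of a protein-coding gene, on 19 chromosomes. Whether an intron or an exon holds them was not analysed here, and host gene levels were not measured.

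Hairpins of the 4 members with the largest differences show where the 3p arm, in capitals, sits in its precursor.
miR-7022 hairpin: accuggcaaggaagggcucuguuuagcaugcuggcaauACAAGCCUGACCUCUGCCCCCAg
miR-6934 hairpin: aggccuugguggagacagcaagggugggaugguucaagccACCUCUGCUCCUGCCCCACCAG
miR-7082 hairpin: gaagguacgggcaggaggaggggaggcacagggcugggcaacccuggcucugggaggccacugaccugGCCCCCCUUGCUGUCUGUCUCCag
miR-7049 hairpin: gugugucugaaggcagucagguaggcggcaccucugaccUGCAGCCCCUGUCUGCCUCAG
In all 4 the arm ends at the last base of the hairpin or 1 to 2 bases before it, and all 4 hairpins end in AG.

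These features ran through the whole block. Of 171 members with a hairpin in RefSeq, 161 hairpins (94.2%) ended in AG, against 76 of 802 other mouse hairpins in the same RefSeq table (9.48%). The 3p arm ended at the last base of the hairpin in 127 and within 3 bases of it in 156. At the other end 23 hairpins began with GU, the letters at which introns usually start, and 19 had both GU and AG. Hairpins were 52 to 109 bases long with a median of 66.0.

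The mature arms were rich in pyrimidines. The median share of C and U was 71.4% over the 201 members, with a range from 47.6% to 91.3%, against 31.8% for the 200 5p arms of the same numbers and 52.4% for the 587 other 3p arms on the array. The longest unbroken run of C and U had a median of 8 bases in the members and reached 18 bases, against medians of 3 and 4 in the other sets. Members held a median of 3 G bases, the 5p arms 10 and the other 3p arms 5. The arm ended in AG in 158 members (78.6%), in 17 5p arms (8.50%) and in 60 other 3p arms (10.2%). It ended in CAG in 137 members (68.2%), against 6 (3.00%) and 30 (5.11%). The array probes are complementary to the mature microRNAs, so probes of the members were rich in purines.

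**Figure D1:**
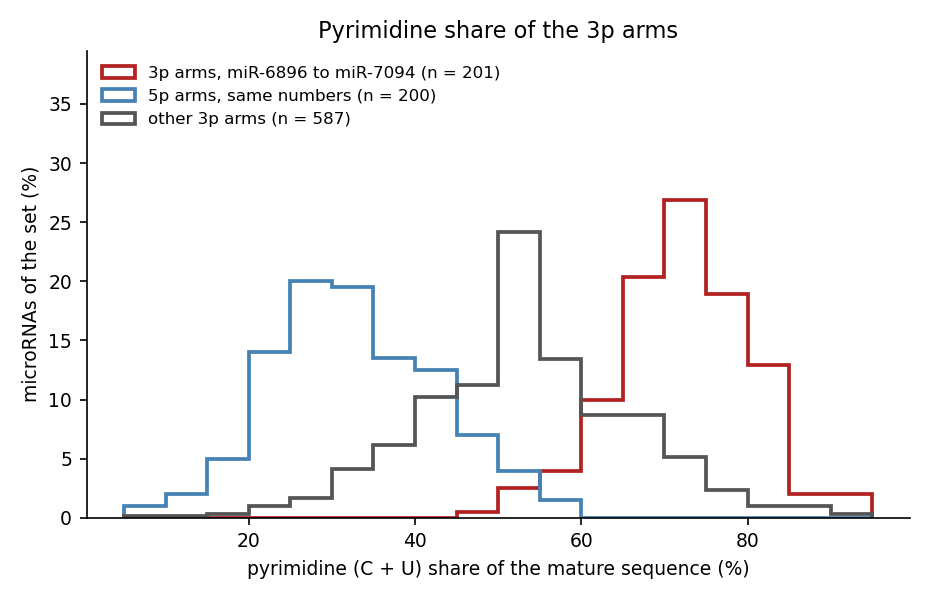
Share of C and U bases in the mature sequence (horizontal axis, percent) against the percentage of each set of microRNAs in bins of 5 percentage points. The members (red) have a median of 71.4%, the 5p arms of the same numbers (blue) 31.8% and the other 3p arms on the array (grey) 52.4%.

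Seeds were mostly distinct. The 201 members had 191 different seeds, and 9 seeds were shared among 19 members. The largest group was 3 members with the seed CACCCUG, miR-7018-3p, miR-7023-3p and miR-7068-3p, and none of these was detected. A shared seed with both members detected was found for miR-7010-3p and miR-7041-3p, which carry GGUUCUC. MiR-7041-3p, of the Lrig1 locus, reads uGGUUCUCuucuucccucag. Its skin spots gave 58.1 and 51.3 and its oral mucosa spots 96.5 and 83.3, and it was detected on the latter array only. For miR-7010-3p the skin spots gave 83.9 and 86.0 and the oral mucosa spots 158 and 152. Their differences, 0.52 and 0.75 on the log2 scale described below, were both positive and both under 2-fold. A seed shared with a microRNA outside the block was found for 17 members, such as miR-7002-3p with miR-218-5p (UGUGCUU), but no detected member did so with a detected one.

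Most of the 3p arms read like empty spots. The 16 empty spots of the skin array read 36.4 ± 7.84 (SD) in scanner units and those of the oral mucosa array 51.9 ± 6.65, and a microRNA was called detected when its repeat spots averaged over 3 SD more than the empty spots did, which put the limits at 59.9 and 71.8. On the skin array 26 members (12.9%) were detected, against 23.6% of all microRNAs. On the oral mucosa array 43 members (21.4%) were detected, against 27.0% of all. Both shares lie below those of the whole array, and below those of the 5p arms of the same numbers (29.0% and 33.5%) and of the other 3p arms (23.2% and 26.1%). Detection on both arrays was met by 24 members, on the skin array only by 2, on the oral mucosa array only by 19, and on neither by 156 (77.6%). Over all 1892 microRNAs these counts were 394, 52, 116 and 1330 (70.3%), so detection in oral mucosa only was the more frequent of the 2 there as well.

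Member signals ran from 31.9 to 363 in skin with a median of 43.3, and from 41.7 to 617 in oral mucosa with a median of 52.8. These medians were close to those of all microRNAs, 42.2 and 52.2. What the members lacked were bright probes. Above 200 there were 3 in skin and 7 in oral mucosa, and none exceeded 1000, whereas 70 and 82 microRNAs of the array did, 4 and 3 of them 5p arms of the same numbers. Among detected members the median signal was 69.0 in skin and 105 in oral mucosa, against 141 and 151 over all detected microRNAs. The order of the members was alike on both arrays, with a Spearman rho of 0.80 over 201 probes and 0.71 over the 24 detected on both. Probes bind with different strength, which both arrays share, so brightness is not a measure of abundance between members.

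**Figure D2:**
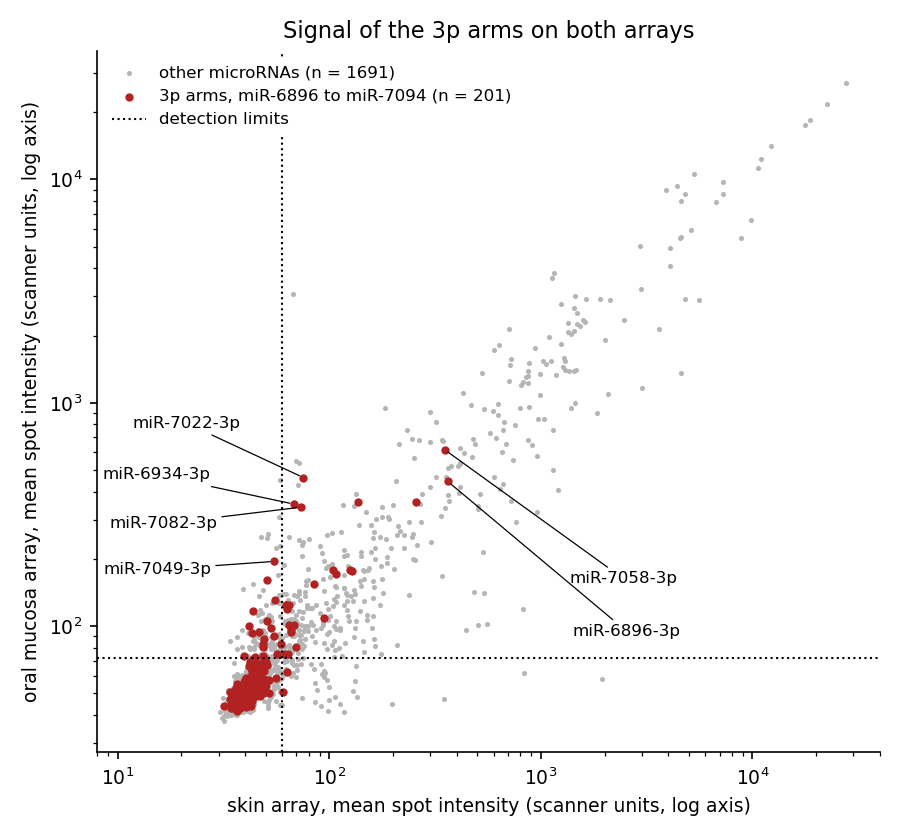
Mean of the repeat spots of each microRNA on the skin array (horizontal) and the oral mucosa array (vertical), both in scanner units on log axes, with the detection limits of 59.9 and 71.8 as dotted lines. The 201 members (red) stay at or under 363 in skin and 617 in oral mucosa, and those with the 4 largest differences stand above the cloud, close to the skin limit.

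At the limit itself the skin array separated miR-6965-3p (60.2 ± 8.89) and miR-6973a-3p (61.7 ± 6.21), which were detected, from miR-6971-3p (59.4 ± 10.9) and miR-7029-3p (56.4 ± 7.5), which were not. On the oral mucosa array miR-6986-3p (71.9 ± 4.76) and miR-6933-3p (72.6 ± 0.841) were detected, and miR-6977-3p (71.0 ± 0.417) and miR-6921-3p (69.2 ± 7.0) were not. Most of these distances to the limit are smaller than the SD of the repeat spots, so detection near the limit is not firm.

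Detection was compared with the sequence. Among members with 85% or more C and U 4 of 8 were detected on each array (50%), and among those under 65% it was 3 of 34 in skin (8.82%) and 4 of 34 in oral mucosa (11.8%). The ranges between held 11 of 95 and 8 of 64 on the skin array, and 20 of 95 and 15 of 64 on the oral mucosa array. Over the 201 members Spearman's rho between C+U share and signal was 0.21 for skin and 0.22 for oral mucosa, and over the 587 other 3p arms it was -0.05 on each array. These are weak relations between probes that share base composition, and they are given as a description. An AG end was found in 71.1% of the 45 members detected on at least 1 array and in 80.8% of those detected on neither.

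MiR-7058-3p was the brightest member on the oral mucosa array and came after miR-6896-3p on the skin array. Its skin spots read 348 and 355 and its oral mucosa spots 607 and 626. The spots of the arrays were apart, but the difference after normalization, 0.41 with an SD of 0.04, was under 2-fold. Differences are oral mucosa minus skin after Variance Stabilizing Normalization (VSN), in which each array gets its own offset and scale and bright signals end up on a log2-like scale. A difference of at least 1 in size, 2-fold, is called past the size rule.

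MiR-6896-3p, the first number of the block, had skin spots of 413 and 313 and oral mucosa spots of 508 and 383. Its spots overlapped between the arrays, and the difference was -0.16 (SD 0.45). For miR-7027-3p the values were 287 and 225 in skin and 393 and 324 in oral mucosa, with a difference of 0.06 (SD 0.37). MiR-6975-3p read 137 and 119.9 in skin and 169.6 and 182 in oral mucosa, with a difference of 0.06 (SD 0.21). These 4 bright members thus ranged from -0.16 to 0.41, and with other scalings they reached up to 0.81 for miR-7058-3p, 0.49 for miR-7027-3p, 0.45 for miR-6975-3p and 0.29 for miR-6896-3p, all under the size rule.

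Of the 45 members detected on at least 1 array, 12 (26.7%) passed the size rule toward oral mucosa and 0 toward skin. Over all 562 detected microRNAs the shares were 13.7% and 14.8%. The gap depended on the scaling. With quantile normalization 5 members (11.1%) passed toward oral mucosa against 7.47% of all, and with 75th percentile scaling 4 (8.89%) against 6.41%, with 0 toward skin in each. Among members detected on 1 array only, 4 passed toward oral mucosa and 17 fell under the rule. Over all microRNAs detected on 1 array only, 30 passed toward oral mucosa, 26 toward skin and 112 fell under the rule. Such members were selected by the array that detected them. A lower value on the other array was raised to its lowest detected signal, which lessens the difference in favour of the detecting array and can reverse its sign. Some members detected in oral mucosa only therefore count as below 0. Examples are miR-6918-3p (2.71 as read, -0.17 with the skin value raised) and miR-6933-3p (1.46 and -0.20). The 24 detected on both arrays are therefore given apart. Of these, 8 passed toward oral mucosa, 0 toward skin and 16 fell under the rule, against 47, 57 and 290 of 394 over the whole array. The median difference over the 45 was 0.41 (range -0.43 to 3.01) with 33 above 0, and over the 24 it was 0.40 (range -0.35 to 3.01) with 19 above 0, beside medians of 0.00 and -0.06 for all microRNAs. With 75th percentile scaling the median over the 45 was 0.13. The direction of the 12 is that of the markers of mesenchyme, red cells, endothelium and immune cells given above, and their part in the result was not tested.

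The 12 are described in groups by size and by the spread of their spots. First come members with a large difference and repeat spots far apart between the arrays. MiR-7022-3p had skin spots of 88.0 and 62.9 and oral mucosa spots of 558 and 368, which differ by 3.01 (SD 0.85), 8.07-fold on the VSN scale. MiR-6934-3p read 71.2 and 65.1 in skin and 358 and 345 in oral mucosa, differing by 2.87 (SD 0.21), 7.33-fold on that scale. Both were only just above the limit in skin and among the brighter members in oral mucosa. MiR-7082-3p behaved alike, with 70.2 and 77.0 in skin and 377 and 304 in oral mucosa, differing by 2.58 (SD 0.32), 5.99-fold on that scale. MiR-7049-3p was not detected in skin, at 58.2 and 51.5, and gave 208 and 182 in oral mucosa. Against the lowest detected skin signal, 59.9, the VSN difference was 2.29 (SD 0.18), and the log2 ratio of its scanner means, with no background taken out, was 1.83. These were the 4 members that remained past the size rule under all 8 other settings (normalizations, a background correction and columns 1 and 2 left out), with lowest values of 2.03 for miR-7022-3p, 1.86 for miR-6934-3p, 1.68 for miR-7082-3p and 1.25 for miR-7049-3p. The background correction before VSN returned almost the main values, and columns 1 and 2 hold no member spot, so these settings add little.

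The second group had smaller differences and repeat spots that were close together. MiR-6929-3p was the only one of these clearly above the limit on both arrays, with 151 and 123 in skin and 352 and 368 in oral mucosa, differing by 1.20 (SD 0.30). MiR-7066-3p gave 65.1 and 59.2 in skin and 129 and 120.0 in oral mucosa, differing by 1.22 (SD 0.27). MiR-7072-3p read 69.2 and 60.4 against 133 and 116, a difference of 1.07 (SD 0.40). In skin the last 2 straddled or just passed the limit of 59.9. MiR-7008-3p gave 66.8 and 59.5 in skin and 121 and 119 in oral mucosa, differing by 1.08 (SD 0.29). Under at least 1 other normalization each of the 4 fell under the size rule, to 0.93 for miR-6929-3p, 0.49 for miR-7066-3p, 0.40 for miR-7072-3p and 0.40 for miR-7008-3p. None changed sign.

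The third group had repeat spots that disagreed. MiR-6970-3p read 61.9 and 48.7 in skin, where it was not detected, and 196 and 65.6 in oral mucosa, so that one of the oral mucosa spots lay under the limit of that array. MiR-7031-3p was likewise not detected in skin, at 48.2 and 38.8, and gave 56.2 and 179 in oral mucosa. Their differences of 1.47 and 1.23 were smaller than their SDs of 2.07 and 2.59. MiR-7017-3p, with 75.4 and 49.7 in skin and 141 and 107 in oral mucosa, also had a difference (1.18) below its SD (1.24). For miR-6958-3p, with 63.9 and 38.0 in skin and 197 and 126 in oral mucosa, the VSN difference from the lowest detected skin signal was 1.92 (SD 0.66), and the log2 ratio of its scanner means was 1.66. Under other normalizations these fell to as little as 0.67 for miR-6970-3p, 0.52 for miR-7031-3p, 0.45 for miR-7017-3p and 0.98 for miR-6958-3p. Over the 12 members, the scanner signals of the repeat spots did not overlap between the arrays for 12, and after normalization, which allows for the brighter oral mucosa array, for 10. Over all 160 microRNAs past the rule these counts were 142 and 151, so such separation was not particular to the members. Of the 8 members past the rule and detected on both arrays, 5 read less than 10 units above the skin limit, where a VSN difference rests on the fitted offset. The offset lay above the empty-spot mean in skin (37.9 against 36.4) and below it in oral mucosa (46.3 against 51.9). At a given scale, these offsets favour dim signals of oral mucosa more than the empty-spot means would. How far this bears on the 5 was not tested.

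**Figure D3:**
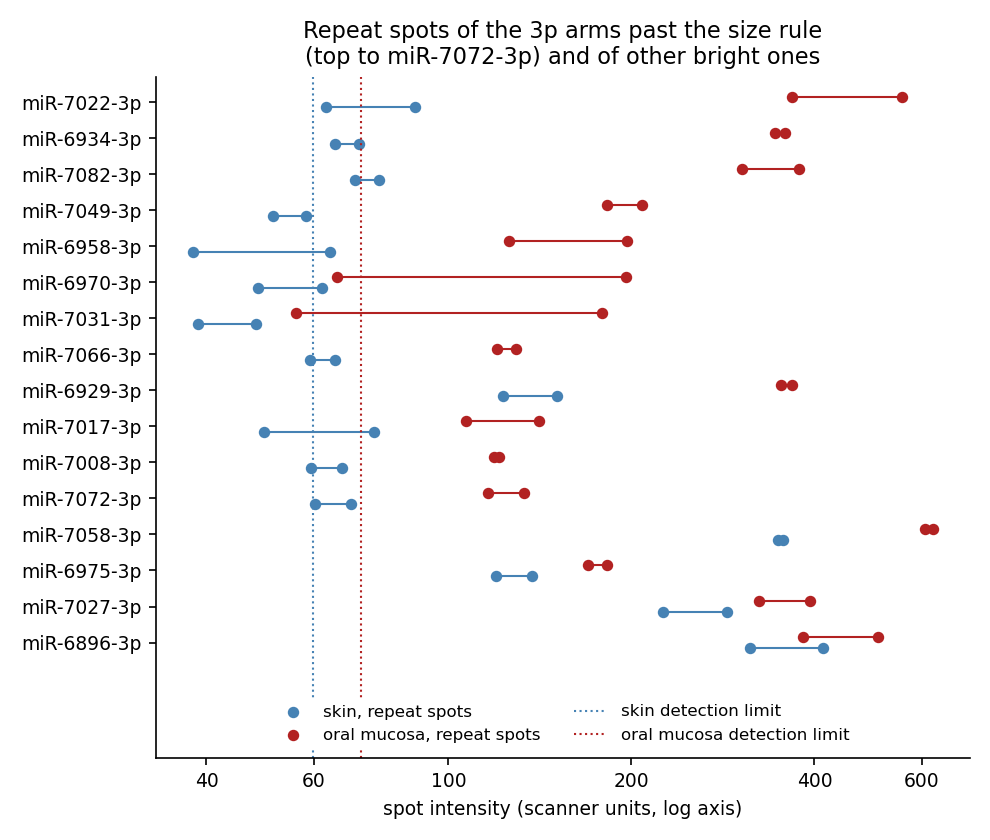
Scanner signal of the repeat spots (horizontal, log axis, scanner units) of 16 members, 12 past the size rule from miR-7022-3p down to miR-7072-3p and below them 4 other bright members; each line joins the 2 spots of an array (blue skin, red oral mucosa) and dotted lines mark the detection limits. For the first 12 the red spots lie to the right of the blue ones, with one low red spot each for miR-6970-3p and miR-7031-3p, while for miR-6896-3p the arrays overlap.

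Just under the size rule were miR-7034-3p, with 52.8 and 48.7 in skin and 108 and 101 in oral mucosa and a difference of 0.94 (SD 0.13), and miR-6952-3p, at 0.83 (SD 0.05). Just past it were miR-7072-3p and miR-7008-3p, at 1.07 and 1.08. MiR-7034-3p and miR-6952-3p were detected in oral mucosa only, so their skin values were raised to the lowest detected signal. Left as read, their VSN differences were 1.70 and 3.06. On the skin side the largest differences were -0.43 for miR-6902-3p and -0.35 for miR-6973b-3p. The oral mucosa value of miR-6902-3p was raised likewise, as was that of miR-6965-3p (-0.26). Left as read, both were past the rule toward skin, at -1.07 and -2.46, but from oral mucosa signals under the limit. MiR-6902-3p read 62.3 and 64.0 in skin, just detected, but was not detected in oral mucosa, with 71.7 and 53.4.

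Position on the array was looked at for the 12. None of the 201 members had a spot in columns 1 and 2 at the edge of the array. The neighbours of their spots, up to 3 rows and 3 columns away, had median differences that ran from -0.51 to 0.62, smaller than the differences of the members themselves. With those columns left out on both arrays, which could change the members only through the normalization, the count stayed at 12.

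The direction of the members was set beside base composition outside the block. Of the microRNAs that bear other numbers, 50 detected ones had 65% or more C and U, a mark chosen after the values were seen. Their median difference was 0.42, with 14 (28.0%) higher in oral mucosa, 3 (6.0%) higher in skin and 72.0% above 0. The 392 with less C and U had a median of -0.04, with 45 (11.5%) past the rule toward oral mucosa and 61 (15.6%) toward skin. The 40 detected members with 65% or more had a median of 0.48, with 11 (27.5%) higher in oral mucosa, 0 in skin and 77.5% above 0. The shift of the members and that of other pyrimidine-rich microRNAs were thus of like size.

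By steps of C+U share, the median outside the block was -0.19 under 35% (83 microRNAs), -0.06 from 35% to 50% (151), 0.05 from 50% to 65% (158), 0.43 from 65% to 75% (35) and 0.42 from 75% on (15). Spearman's rho between share and difference was 0.20 over the 442. The probes share 2 arrays, so this describes a pair of arrays. Among microRNAs under 500 units on both arrays, which is nearer to the range of the members, the median outside the block was 0.51 for the 44 with 65% or more and -0.06 for the 264 with less. Within the 45 members rho was 0.07, and the 5 members below 65% included miR-7022-3p, the largest difference. Outside the block the median of the pyrimidine-rich microRNAs stood above that of the rest by 0.46, and under 8 other settings by 0.18 (quantile normalization) to 0.46. It was 0.21 with median scaling, 75th percentile scaling or no normalization. Whether base composition has a part in the difference between the arrays was not tested.

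**Figure D4:**
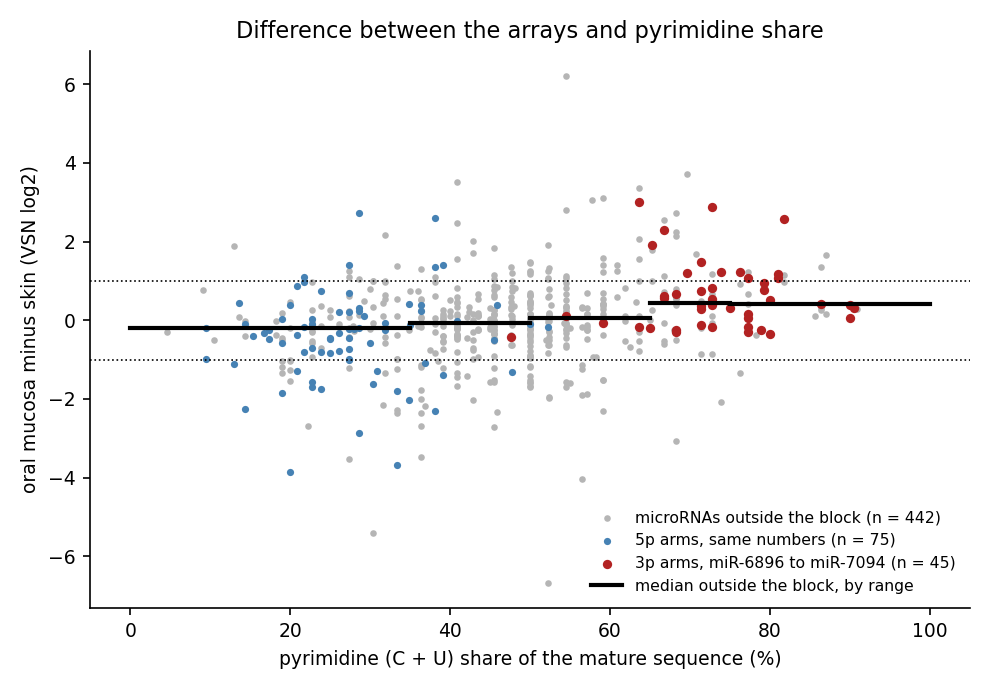
Difference between the arrays (oral mucosa minus skin, VSN log2, vertical) against the share of C and U (horizontal, percent) for each microRNA detected on at least 1 array: 45 members (red), 75 5p arms of the same numbers (blue) and 442 others (grey), with dotted lines at the size rule. Black bars are medians of the 442 by range of C+U share, rising from -0.19 under 35% to 0.43 from 65% to 75%.

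The other arm of each precursor gave a second reading. Of 200 pairs both arms were detected on at least 1 array in 20, the 3p arm alone in 25, the 5p arm alone in 55 and neither in 100. The 5p arm was detected in 44.4% of pairs with a detected 3p arm and in 35.5% of the rest. Over the 75 detected 5p arms, 6 (8.0%) passed the rule toward oral mucosa and 19 (25.3%) toward skin, with a median of -0.32, the opposite direction to the 3p arms. Of the 50 detected on both arrays, 1 passed toward oral mucosa and 17 toward skin. None of the detected 5p arms reached 65% C and U, and whether composition has a part in their direction was not tested.

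Within the 20 pairs the 3p arm was above 0 in 16 and the 5p arm in 5, with medians of 0.41 and -0.35, and the signs matched in 9. These counts include arms detected on 1 array only, whose sign can depend on the raised value. No pair had both arms past the rule in one direction. Opposite calls were found in 2 pairs. MiR-7082-5p read 4594 ± 14.5 for skin and 1357 ± 226 for oral mucosa, which is -2.25 (SD 0.25) beside 2.58 for its 3p arm. MiR-7022-5p read 84.9 ± 26 for skin and, not detected there, 64.0 ± 10.8 for oral mucosa, which is -1.32 (SD 0.84) from the lowest detected signal beside 3.01 for its 3p arm.

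In 5 pairs the 3p arm alone was past the rule. MiR-6934-5p was close to its limit on both arrays, at 58.8 ± 3.94 and 81.7 ± 0.0212, with a difference of 0.22, and the 5p arms of miR-6929, miR-6958, miR-6970 and miR-7072 had differences of -0.19, 0.70, -0.22 and 0.45. MiR-6934-5p, miR-6929-5p (48.6 in skin, 72.8 in oral mucosa) and miR-6958-5p (46.1 and 95.8) were detected in oral mucosa only. Their skin values were therefore raised to the lowest detected signal, which lessened these differences. In 4 pairs the 5p arm alone was past it, among them miR-6942-5p at -2.87 (SD 0.18) and miR-7034-5p at 1.35 (SD 0.15), whose 3p arms had -0.30 and 0.94. Neither arm was past the rule in 9. For 5 of the 12 members past the rule, miR-7008-3p, miR-7017-3p, miR-7031-3p, miR-7049-3p and miR-7066-3p, the 5p arm was detected on neither array.

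**Figure D5:**
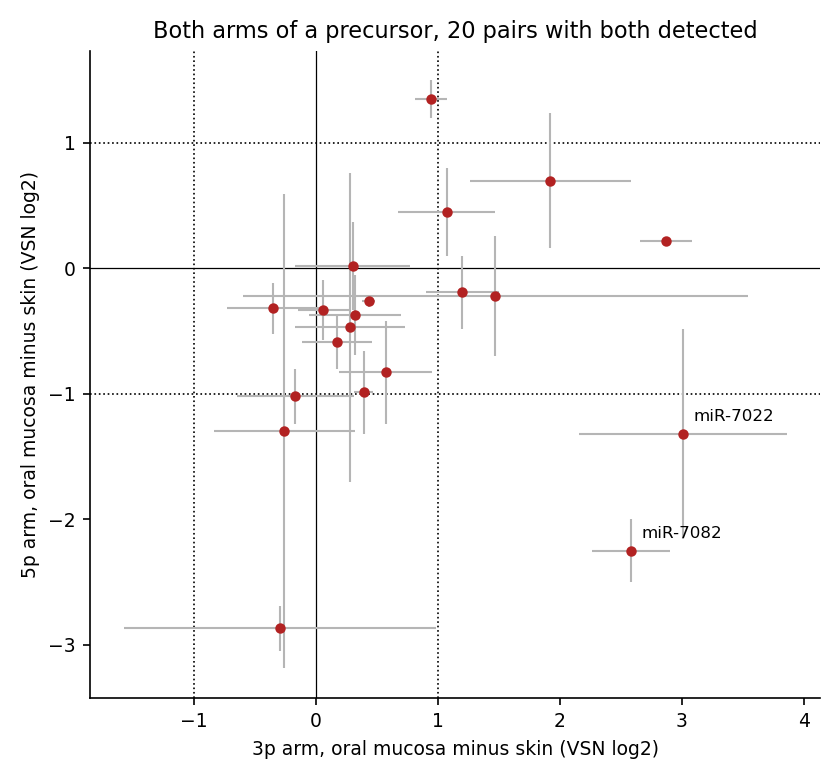
Difference between the arrays (oral mucosa minus skin, VSN log2) of the 3p arm (horizontal) and the 5p arm (vertical) of the 20 precursors with both arms detected; grey bars are SDs from repeat spots and dotted lines mark the size rule. Most points lie right of 0 and below 0, with miR-7022 and miR-7082 past the rule in opposite directions for their arms.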

How the data were processed

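The authors deposited the scanner intensity of every spot of both arrays, as the median Cy5 brightness with no background taken out, and 1 processed intensity per microRNA and array by a method not given in the sources used here. RNA was tailed, tagged and hybridised to LC Sciences chips, as per the labels. Of 3968 spots 184 were controls, which served for the detection limit and the normexp fit only. The 2 repeat spots of a probe were averaged. VSN, named in the study's methods, was written in Python after its published description (arsinh, maximum likelihood, least trimmed squares keeping 90% of probes in each of 5 slices of signal with the dimmest kept whole, 7 starts). The fit gave offsets of 37.9 (skin) and 46.3 (oral mucosa) and a scale ratio of 1.37, and the procedure was tested on simulated data. There, changes were set only in probes of higher signal, and the added background noise was below the SD of the empty spots. The simulation therefore says little of calls near the detection limit. Where 1 array alone detected a microRNA, its value on the other array was raised to the lowest signal detected there (59.9 for skin, 71.9 for oral mucosa) if it was below that, and the SD is then that of the detecting array.

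The members and lists were chosen with earlier results of these data known. Members were named for the largest differences past the size rule in each direction, the highest signals, a place next to a limit, or a seed shared between detected members, and miR-6902-3p, miR-6973b-3p, miR-6942 and miR-7034-5p besides, after their values were seen. CyberT, named in the study's methods, was not run, since the files hold only repeat spots as replicates and these share 1 pool of RNA per tissue. Alternatives were other detection limits, quantile normalization, median and 75th percentile scaling, no normalization, the processed values as log2(value + 50), normexp with an offset of 50 before VSN, a single VSN start, columns 1 and 2 left out, and thresholds of 1.5-fold and 4-fold. Positions of intron ends were not analysed here. The tools were R 4.3.3 (limma 3.58.1) and Python 3.11.15 (pandas 2.3.3, matplotlib 3.10.9, scipy 1.17.1, numpy 2.4.6).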

Additional observations from a re-analysis of the deposited data

How the results depend on the processing

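No paired analysis was possible because there is 1 array per tissue. The 12 members past the size rule became 5 with quantile normalization, 6 with median scaling, 4 with 75th percentile scaling, 6 with the processed values and 4 at the 4-fold threshold, all of them among the 12 and all higher in oral mucosa. As shares of the 45 these were 11.1%, 13.3%, 8.89%, 13.3% and 8.89%, against 7.47%, 8.36%, 6.41%, 7.83% and 3.74% of all detected microRNAs toward oral mucosa, so the gap was small with 75th percentile scaling. Without a detection filter 76 of 201 members passed, 49 higher in oral mucosa and 27 in skin. More passed because differences of probes near the empty spots then count. Over the whole array 313 of 1892 microRNAs were then higher in oral mucosa and 264 in skin. Toward oral mucosa the share was 24.4% of members against 16.5% of all. Toward skin the share of members, 13.4%, was just under that of the whole array. With no normalization 8 passed and all 45 differences were above 0, but the median over all detected microRNAs was then 0.40 and the split over all was 80 to 22. Under the remaining settings 8 to 18 passed and 0 were higher in skin. The fewer calls of the first 4 settings were not traced to a cause, so the cause was not tested. The median difference of the members, 0.41, stayed above 0 under every setting run, from 0.13 with 75th percentile scaling to 0.59 with no normalization. Detected members ranged from 21 to 33 in skin and from 31 to 54 in oral mucosa with other limits. Signal over background limits these values, since the median member read 43.3 in skin and 52.8 in oral mucosa, close to the empty spots, and 8 of the 12 fell under the rule in at least 1 of 8 settings of normalization, background or spots left out.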
